A study of Homo sapiens and Mus musculus with 74 samples.

Results

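The genes described here encode 2 sets of spliceosome proteins in mouse kidney and brain. The first set holds 4 large proteins of the U5 small nuclear ribonucleoprotein (snRNP), encoded by Prpf8, Snrnp200, Eftud2 and Prpf6. These are called the large U5 genes below, and Ddx23 (819 residues), also of U5, is counted among the other spliceosome genes. The second set holds 6 small Sm proteins, encoded by Snrpd1, Snrpd2, Snrpd3, Snrpe, Snrpf and Snrpg. These 10 of the 22484 genes with a coding sequence in the annotation were chosen by their changes in RNA, ribosome footprints and translation efficiency (TE) on loss of Rpl41. Those changes are therefore given as a description, without a test. Tests are given for what the choice did not use, namely disome counts in knockout (KO) and wild-type (WT) kidney and the difference between WT kidney and WT brain. Each gene is shown by the listed transcript with its longest protein.

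The spliceosome removes introns from pre-mRNA and is built anew on each intron from small nuclear RNAs and their proteins. PRPF8 is the scaffold that holds the catalytic RNA core, SNRNP200 is the helicase that unwinds U4 from U6 RNA, EFTUD2 is a GTPase bound to PRPF8, and PRPF6 is a repeat protein that bridges U5 to the U4/U6 particle. The Sm proteins are short and form a closed ring around the Sm site of the U1, U2, U4 and U5 RNAs, with the remaining place in the ring taken by SmB or, mainly in neurons, by its paralog SmN (Snrpb and Snrpn). The survival of motor neuron (SMN) complex loads the ring onto the RNA in the cytoplasm. The same particle therefore needs some very long and some very short proteins.

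WT mice (Rpl41+/+) were compared with Rpl41-/- mice, which lack RPL41, the smallest ribosomal protein, and were derived from C57BL/6J zygotes by genome editing with CRISPR-Cas9. The kidneys and brains used for ribosome profiling came from males 10 weeks old. Ribo-seq sequences the RNA that single ribosomes protect, disome-seq the longer fragments that pairs of stacked ribosomes protect, and RNA-seq the polyadenylated RNA. Each of the 10 groups of libraries (WT or KO, in kidney Ribo-seq, RNA-seq and disome-seq and in brain Ribo-seq and RNA-seq) held 3 libraries, 30 in all. The paper calls the tissue Ribo-seq replicates biological and gives n = 3, male, whereas the labels do not name the animals. The p-values measure the spread between these libraries.

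The deleted gene followed the labels in every library. Rpl41 had 3695 to 7502 counts in WT kidney RNA-seq and 3 to 8 in KO, 8981 to 12199 in WT brain RNA-seq and 6 to 12 in KO, and 71 to 154 in WT kidney disome-seq and 0 to 2 in KO. Total counts ranged from 9498663 to 42452425 in Ribo-seq, from 44998381 to 123745890 in RNA-seq and from 1187636 to 3018963 in disome-seq, where the precision was lowest. Kidney markers (7 genes, among them Umod and Lrp2) summed to at least 12800 CPM (counts scaled for library size) in each kidney RNA-seq library and to at most 0.944 CPM in brain, where 2 of them had no count, and 7 brain markers summed to at least 2950 CPM in brain RNA-seq and to at most 7.46 CPM in kidney. The summed kidney markers were higher in KO (16400 to 20600 CPM) than in WT kidney RNA-seq (12800 to 15200 CPM), and likewise in kidney Ribo-seq (5650 to 7530 against 4430 to 5360 CPM). The 5 leukocyte markers were higher in KO in kidney Ribo-seq (142 to 164 against 79.1 to 113 CPM) and kidney disome-seq (71.6 to 107 against 47.6 to 66.7 CPM). Markers of 5 blood genes summed to less in KO than in WT in brain Ribo-seq (346 to 443 against 636 to 1840 CPM) and kidney disome-seq (160 to 231 against 288 to 322 CPM), and 8 genes of the exocrine pancreas to less in kidney Ribo-seq (4.94 to 8.33 against 12.1 to 175 CPM). In bulk tissue, fewer cells of a type and less RNA per cell cannot be told apart, and the part of these markers in the results was not tested.

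The proteins differ widely in length. PRPF8 has 2335 residues and SNRNP200 has 2136, followed by EFTUD2 with 972 and PRPF6 with 941, whereas the Sm proteins have 126 (Snrpd3), 119 (Snrpd1), 118 (Snrpd2), 92 (Snrpe), 86 (Snrpf) and 76 (Snrpg) residues. On GRCm38 in GENCODE M21, Prpf8 (ENSMUSG00000020850) spans 42 exons at chr11:75486816-75509447 on the plus strand and Snrnp200 spans 45 exons at chr2:127208399-127240451 on the plus strand. Eftud2 lies at chr11:102838473-102880967 on the minus strand and Prpf6 at chr2:181601319-181655660 on the plus strand. Snrpd3 lies at chr10:75517551-75537381 on the plus strand, Snrpf at chr10:93583029-93589706 on the minus strand and Snrpg at chr6:86371304-86379328 on the plus strand. None of the Sm genes has more than 5 exons.

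The groups also differ in whether a short read can be assigned to the gene. Each coding sequence was cut into all windows of 28 bases, about the length of a ribosome footprint, and each window was looked for elsewhere in the genome. No window of Prpf8, Snrnp200, Eftud2 or Snrpd3 was found a second time, and 2.36% of the windows of Prpf6 were. By contrast, 60.4% of windows in Snrpd1, 83.3% in Snrpf, 83.7% in Snrpe, 91.2% in Snrpd2 and 100% in Snrpg recurred, in each case with most matches in a processed pseudogene (Gm14277, Gm13092, Snrpert, Gm10120 and Gm8186 in that order). The coding sequences below are from the GENCODE M21 transcripts on GRCm38, 5′ to 3′ on the strand of the gene, and show Snrpg and Snrpf, which share many windows, beside Snrpd3 and Prpf8, which share none. Capitals mark bases that lie in at least 1 window of 28 bases found elsewhere in the genome.
Snrpg, whole coding sequence of 231 bases: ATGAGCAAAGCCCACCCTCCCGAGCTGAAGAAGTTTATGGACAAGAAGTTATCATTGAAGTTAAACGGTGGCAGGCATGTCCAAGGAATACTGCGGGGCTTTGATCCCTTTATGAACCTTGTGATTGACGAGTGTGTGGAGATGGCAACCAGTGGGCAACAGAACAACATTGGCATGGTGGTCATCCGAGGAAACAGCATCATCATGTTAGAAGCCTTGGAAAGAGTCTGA
Snrpf, whole coding sequence of 261 bases: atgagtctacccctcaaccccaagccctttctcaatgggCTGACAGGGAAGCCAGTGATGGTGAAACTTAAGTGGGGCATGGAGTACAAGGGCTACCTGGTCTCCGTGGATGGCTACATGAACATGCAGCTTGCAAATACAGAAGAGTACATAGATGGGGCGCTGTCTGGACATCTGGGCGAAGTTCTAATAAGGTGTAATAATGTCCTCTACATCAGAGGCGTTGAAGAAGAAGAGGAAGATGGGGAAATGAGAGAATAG
Snrpd3, first 180 bases: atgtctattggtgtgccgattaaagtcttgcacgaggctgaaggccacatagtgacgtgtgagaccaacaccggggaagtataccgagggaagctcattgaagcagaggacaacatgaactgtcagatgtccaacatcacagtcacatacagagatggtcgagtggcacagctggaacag
Prpf8, first 180 bases: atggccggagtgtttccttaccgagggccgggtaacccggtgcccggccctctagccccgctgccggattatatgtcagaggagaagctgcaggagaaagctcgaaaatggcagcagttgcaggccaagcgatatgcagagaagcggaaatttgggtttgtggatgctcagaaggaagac

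All 231 bases of Snrpg and 222 of 261 in Snrpf lay in such windows, and none in Snrpd3 or Prpf8. The counts showed the same split. In WT kidney Ribo-seq the mean CPM of the pseudogene was 54.9% (Gm14277) to 92.6% (Gm8186) of that of its Sm gene, with a median of 80.6% over the 5 pairs, and in WT brain Ribo-seq 63.0% to 91.8%, with a median of 74.1%. In WT kidney RNA-seq the median was 0.801%, and in WT brain RNA-seq it was 22.3% with a maximum of 77.2% for Gm8186. Footprints from the shared windows of these 5 Sm genes thus cannot be told apart from footprints of their pseudogenes, and the values below are uncertain to that degree. Snrpd3, Prpf8, Snrnp200 and Eftud2 have no such windows, and Prpf6 has few.

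**Figure D1:**
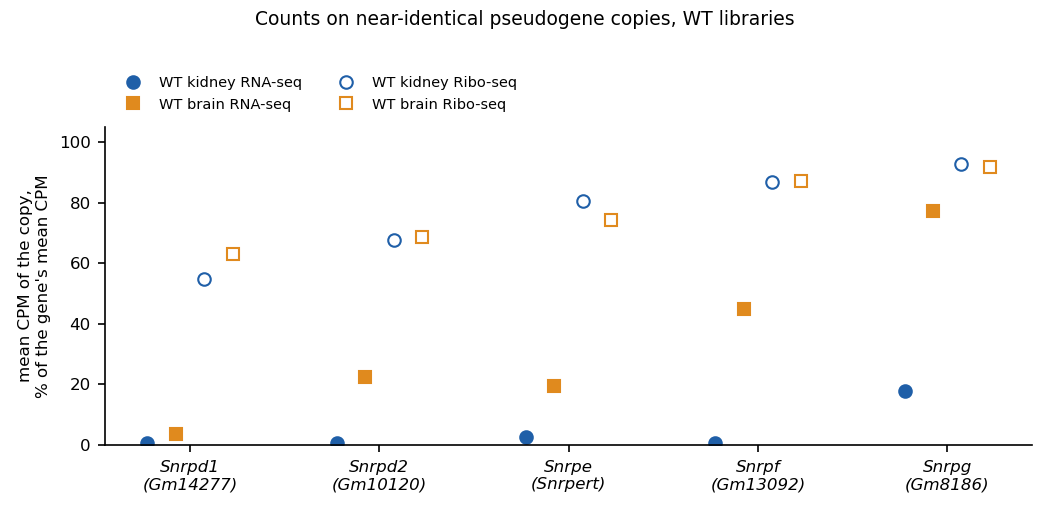
Mean CPM of the processed pseudogene nearest in sequence as a percentage of the mean CPM of its Sm gene, in the WT libraries (3 per group). Open symbols are Ribo-seq and filled symbols RNA-seq. All Ribo-seq values lie between 54.9% and 92.6%, and the kidney RNA-seq values reach at most 17.7%.

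In WT tissues the Sm genes had more footprints per length of coding sequence than the large U5 genes, without regard to their RNA level. Ribo-seq CPM per kb of coding sequence in kidney was highest for Snrpd3 with 82.0 ± 5.52 (SD, n = 3), and followed by Snrpd2 with 48.7 ± 0.680, Snrpe with 48.0 ± 9.19 and Snrpg with 36.5 ± 3.4. Snrpf with 28.2 ± 3.64 and Snrpd1 with 21.1 ± 2.89 were the lowest Sm genes. All lay above Prpf8 with 15.6 ± 0.478, Snrnp200 with 11.3 ± 0.171, Prpf6 with 7.33 ± 0.681 and Eftud2 with 6.58 ± 0.529. Within this order, Snrpd2 and Snrpe, Snrpe and Snrpg, and Prpf6 and Eftud2 did not differ beyond their SDs. The 6 Sm proteins sit in the ring in equal numbers, and their footprint density spanned 3.89-fold in kidney and 1.85-fold in brain, where it ran from 37.2 CPM per kb (Snrpf) to 68.7 CPM per kb (Snrpd3). The large U5 genes spanned 2.37-fold in kidney and 2.79-fold in brain, with Prpf8 highest in both tissues (16.3 ± 2.20 CPM per kb in brain).

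RNA was less evenly ordered. Per kb of transcript, kidney RNA-seq gave 3.70 to 6.18 CPM for the large U5 genes, and 2.43 (Snrpg) to 27.6 (Snrpe) for the Sm genes, an 11.4-fold span that fell to 2.71-fold in brain (6.72 to 18.2 CPM per kb). Footprints over RNA, as log2 of the Ribo-seq CPM per kb of coding sequence over the RNA-seq CPM per kb of transcript, were 3.91 for Snrpg and 3.78 for Snrpd3 in kidney. These stood at the 97.8th and 97.6th percentile of the 12624 coding genes tested, whose median was 0.92. Prpf6 stood lowest of the 10 with 0.25 (24.7th percentile), and Prpf8 was the highest large U5 gene with 1.74 (78.9th percentile). Snrpd1 (0.69) and Snrpe (0.80) lay below Prpf8, Snrnp200 (1.23) and Eftud2 (0.83), so that the sets overlapped relative to RNA. Brain gave a similar picture for Snrpd3 (3.35, 96.8th percentile of 13961 genes) and Prpf6 (0.45, 28.9th percentile). There Snrpe (1.13) and Snrpd1 (1.22) lay below Prpf8 (1.93) and Snrnp200 (1.54). The transcript used for Snrpd3 has 3036 bases for a coding sequence of 126 codons, so that its RNA value per kb depends on the annotated transcript length.

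**Figure D2:**
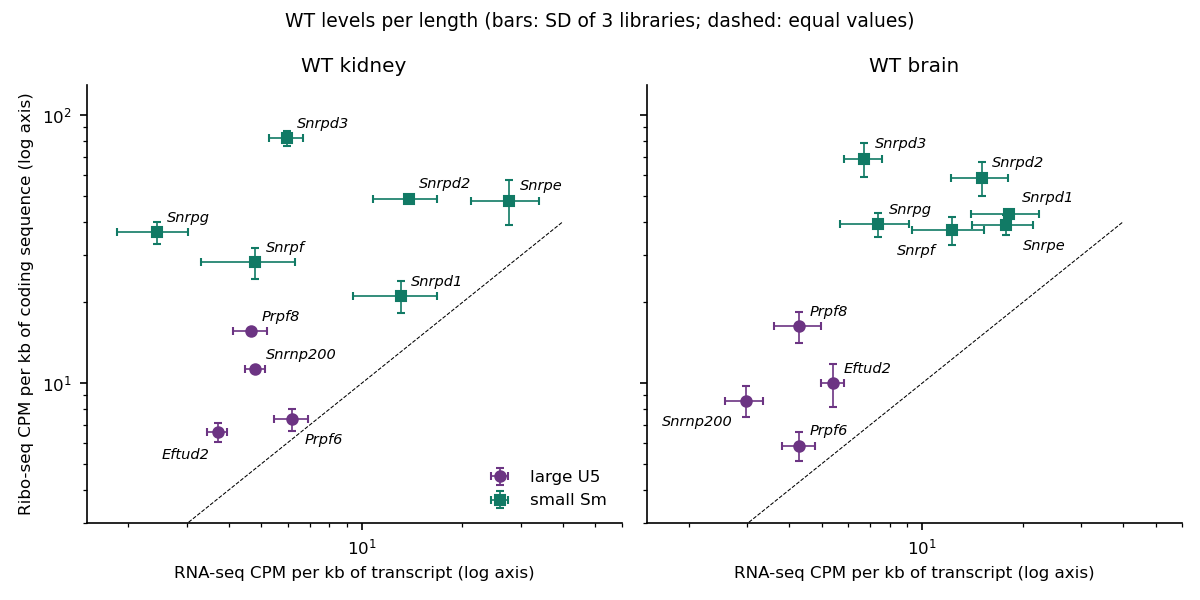
Ribo-seq CPM per kb of coding sequence against RNA-seq CPM per kb of transcript in WT kidney and WT brain, both on log axes (points: means of 3 libraries, bars: SD, dashed line: equal values). The Sm genes lie above the large U5 genes on the Ribo-seq axis in both tissues, and the kidney RNA values of the Sm genes spread from 2.43 to 27.6.

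Comparison of WT kidney with WT brain asked whether the 10 genes differ between tissues independently of Rpl41. In this contrast 38.3% of 16011 coding genes were called higher in kidney RNA-seq and 34.8% lower (edgeR's quasi-likelihood test, Benjamini-Hochberg adjustment over all transcripts, threshold 0.05), so that calls were frequent. RNA of Snrnp200 was higher in kidney by 0.99 on the log2 scale (standard error (SE) 0.16, adjusted p = 0.00038) and that of Prpf6 by 0.82 (SE 0.17, adjusted p = 0.0016). Snrpe was also higher (0.94, SE 0.24, adjusted p = 0.0058), while Snrpf (-1.06, SE 0.29, adjusted p = 0.0083) and Snrpg (-1.31, SE 0.27, adjusted p = 0.0016) were lower. The calls of these 5 genes held under all 11 alternative settings. Prpf8 (0.41, SE 0.16, adjusted p = 0.048) was called in 3 of 11 alternatives, with adjusted p from 0.021 to 0.47, and lost its call without WT brain library 1 or 2 or without any of the 3 WT kidney libraries. Eftud2, Snrpd1, Snrpd2 and Snrpd3 were not called (log2 differences of -0.25, -0.18, 0.16 and 0.11). Eftud2 was called lower in kidney in 2 of 11 alternatives, and these 3 Sm genes in 0. The Sm ring was thus not uniformly higher or lower in either tissue at the RNA level.

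Footprints were compared between tissues in the same way. Among 14929 coding genes, 37.6% were called higher and 38.0% lower in kidney Ribo-seq. Footprints of Snrnp200 (0.50, SE 0.13, adjusted p = 0.0034, edgeR) and Prpf6 (0.44, SE 0.13, adjusted p = 0.0088) were higher in kidney, and those of Eftud2 (-0.50, SE 0.15, adjusted p = 0.0092) and Snrpd1 (-0.91, SE 0.14, adjusted p = 4.7e-05) were lower. Snrpd3 (0.38, SE 0.13, adjusted p = 0.019, range over alternatives 0.0092 to 0.076) and Snrpe (0.41, SE 0.15, adjusted p = 0.027, range 0.011 to 0.092) were called higher, but not in 4 and 5 of the 11 alternatives. Without WT brain Ribo-seq library 1, 3 members were called in place of 6, with Eftud2 (adjusted p = 0.054), Snrpd3 (0.076) and Snrpe (0.080) lost. Without WT brain library 3 Snrpd3 (0.066) and Snrpe (0.070) were lost, and without WT kidney library 3 Snrpe (0.089). Snrnp200, Prpf6 and Snrpe were thus called higher in kidney both in RNA and in footprints.

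Snrpg was called between tissues in RNA, and its footprint difference of 0.03 was not called (adjusted p = 0.84, edgeR). Its RNA-seq level was 2.42, 3.24 and 2.04 CPM in the WT kidney libraries and 8.70, 8.97 and 5.71 CPM in the WT brain libraries, with no overlap. Its Ribo-seq level was 9.02, 8.47 and 7.49 CPM in kidney and 8.83, 9.84 and 8.08 CPM in brain, which overlap. TE, here the Ribo-seq difference minus the RNA-seq difference in 1 model, was higher in kidney by 1.51 (SE 0.32, adjusted p = 0.0031 by edgeR, called under all 17 alternatives with adjusted p from 0.00014 to 0.032). Of 16560 coding genes, 12.3% were called higher and 9.00% lower in TE, and Snrpg was the only member called. Snrpf pointed the same way (0.96, SE 0.35, adjusted p = 0.067) and was called in 6 of 17 alternatives, among them without WT brain RNA-seq library 3 (adjusted p = 0.021) or without WT kidney RNA-seq library 2 (0.016). Without WT kidney RNA-seq library 3, TE of Snrpd1 was called lower in kidney (-0.77, adjusted p = 0.045), in place of no call. Beside these values, the pseudogene Gm8186 had a mean of 0.455 CPM in WT kidney RNA-seq and 6.02 CPM in WT brain RNA-seq, against 2.57 and 7.80 CPM on Snrpg, and Gm13092 had 0.0263 and 4.75 CPM against 4.12 and 10.6 CPM on Snrpf. The pseudogene counts thus moved with the tissue difference in RNA of both genes, and their part in it was not tested.

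The genes for the remaining place in the ring were called in opposite directions. The log2 difference of kidney minus brain for Snrpn, which encodes SmN, was -5.09 in RNA (SE 0.22, adjusted p = 2.8e-08, edgeR) and -4.85 in footprints (SE 0.17, adjusted p = 9.9e-12). Snrpb, which encodes SmB, was higher in kidney by 1.14 in RNA (adjusted p = 8.1e-05) and by 1.02 in footprints (SE 0.13, adjusted p = 7.1e-06). WT brain RNA-seq libraries had 328, 374 and 276 CPM of Snrpn and kidney libraries 8.64, 6.60 and 8.23 CPM. Of the windows of 28 bases, 36.1% in Snrpn and 12.9% in Snrpb recurred elsewhere in the genome, so that footprints from these cannot be assigned to 1 place.

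Loss of Rpl41 was described gene by gene, starting with kidney footprints. Prpf8 had 113, 109 and 106 CPM in WT kidney Ribo-seq and 154, 175 and 171 CPM in KO, a log2 fold change of 0.61 (SE 0.11). Snrnp200 had 73.3, 71.1 and 71.9 CPM in WT and 100.5, 115 and 114 CPM in KO (0.61, SE 0.11). For both genes the WT and KO ranges were separate, with KO on the higher side. Eftud2 had 20.2, 19.9 and 17.4 CPM in WT and 22.9, 25.7 and 25.3 CPM in KO (0.37, SE 0.11), and Prpf6 had 21.5, 22.1 and 18.5 CPM in WT and 28.5, 29.7 and 28.7 CPM in KO (0.48, SE 0.10). The smallest of the 4 changes was thus that of the GTPase Eftud2, and the groups did not overlap for any large U5 gene, where 17.0% of 13454 coding genes had all KO libraries higher and 16.0% all KO libraries lower.

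The Sm genes lay near or below the WT level in KO kidney footprints. Snrpf had 7.52, 6.25 and 8.08 CPM in WT and 5.63, 4.34 and 4.63 CPM in KO, a log2 fold change of -0.63 (SE 0.14), and was the only Sm gene whose groups did not overlap. Snrpe had 11.0, 12.7 and 16.0 CPM in WT and 11.3, 9.73 and 10.6 CPM in KO (-0.33, SE 0.14), with KO library 1 inside the WT range. Snrpd1 gave -0.25 (SE 0.13), Snrpd3 -0.14 (SE 0.11), Snrpg -0.09 (SE 0.12) and Snrpd2 -0.01 (SE 0.11), the last 2 smaller than their SE. Snrpd3, the Sm gene without shared windows, had 29.2, 30.5 and 33.3 CPM in WT and 30.8, 26.7 and 27.0 CPM in KO, so that KO library 1 lay within the WT range. All 6 fold changes were negative, with a median of -0.20 against -0.02 for all genes tested and 0.55 for the large U5 genes.

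**Figure D3:**
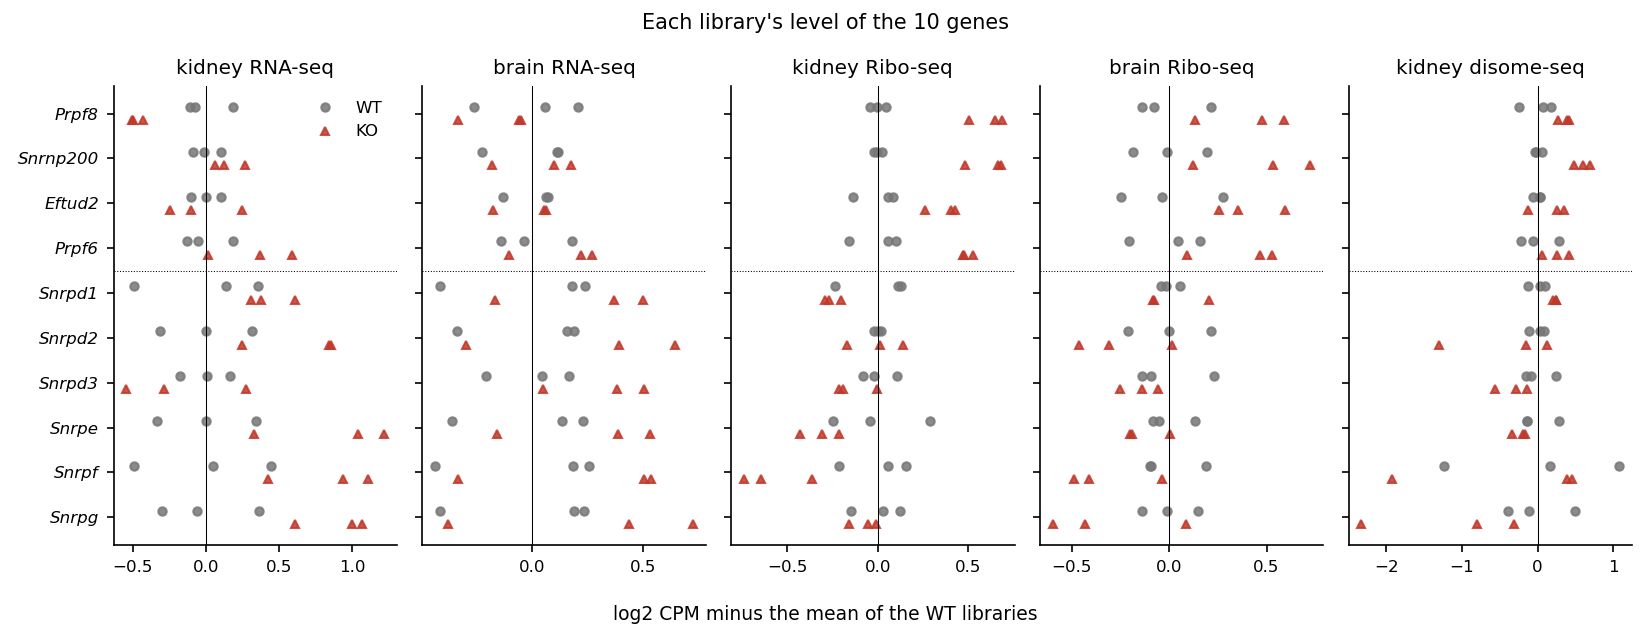
Level of each gene in each library as log2 CPM minus the mean of the WT libraries of that tissue and assay, with WT as gray circles and KO as red triangles, and large U5 genes above the dotted line. In kidney Ribo-seq all KO libraries of the 4 large U5 genes lie to the right of the WT libraries, and Snrpf is the Sm gene with all KO libraries to the left.

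Brain footprints had the same signs as kidney footprints except for Snrpd1, with more overlap. Prpf8 had 132, 103 and 108 CPM in WT brain Ribo-seq and 124.5, 171 and 158 CPM in KO (0.40, SE 0.14), and Snrnp200 had 62.8, 54.4 and 48.2 CPM in WT and 59.7, 90.6 and 79.3 CPM in KO (0.48, SE 0.15). For both, KO libraries 2 and 3 lay above all WT libraries and KO library 1 lay within them. Eftud2 (0.39, SE 0.14) and Prpf6 (0.38, SE 0.14) were ordered likewise, with KO library 1 of Eftud2 at 34.4 CPM against a WT maximum of 34.9 CPM. Among the Sm genes Snrpf (-0.30, SE 0.15) and Snrpg (-0.30, SE 0.17) were the lowest, followed by Snrpd2 (-0.24, SE 0.14), Snrpd3 (-0.15, SE 0.12), Snrpe (-0.12, SE 0.12) and Snrpd1 (0.02, SE 0.12). None of the 10 genes had separate groups, where 9.89% of 14465 coding genes had all KO libraries higher and 9.73% all lower. The median fold change was 0.40 for the large U5 genes and -0.19 for the Sm genes.

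At the RNA level the order of the sets was turned in kidney. Prpf8 had 32.0, 32.9 and 39.3 CPM in WT kidney RNA-seq and 24.3, 24.5 and 25.7 CPM in KO, a log2 fold change of -0.48 (SE 0.14), with all KO libraries below all WT libraries. Snrnp200 (0.15, SE 0.13), Eftud2 (-0.02, SE 0.17) and Prpf6 (0.34, SE 0.18) overlapped between genotypes, so that Prpf8 was the large U5 gene with lower RNA beside higher footprints in every KO library. Snrpg had 2.42, 3.24 and 2.04 CPM in WT and 3.84, 5.28 and 5.02 CPM in KO (0.87, SE 0.26), and was the Sm gene with all KO libraries higher. Snrpe (0.88, SE 0.26), Snrpf (0.80, SE 0.29), Snrpd2 (0.65, SE 0.22) and Snrpd1 (0.39, SE 0.23) were also higher on average, and in each of them KO library 1 lay within the WT range. Snrpd3 pointed the other way, with 18.1, 15.9 and 20.2 CPM in WT and 21.8, 12.4 and 14.8 CPM in KO (-0.15, SE 0.22). Non-overlapping groups were found in 14.2% (KO higher) and 6.67% (KO lower) of 13906 coding genes.

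KO kidney RNA-seq libraries 2 and 3 stood apart from the rest. They had 1.76% and 1.67% of their counts on mitochondrial rRNA, against 0.436% to 0.962% in the other 4 kidney RNA-seq libraries, and counts on 83287 and 86071 transcripts against 91222 to 93091. Their median Sm level relative to the WT mean was 0.95 and 0.89 on the log2 scale, whereas KO library 1 had 0.32 and the WT libraries 0.00, 0.35 and -0.33. Scaling factors moved with these values, at 0.9068 and 0.9067 in KO libraries 2 and 3, 1.0204 in KO library 1, and 1.0573, 1.0229 and 1.0879 in the WT libraries. In brain RNA-seq the Sm level likewise was highest in the libraries of lowest factor (0.53 at 0.9234 and 0.39 at 0.9349, KO libraries 2 and 3) and lowest in those of highest factor (-0.39 at 1.1014, WT library 3, and -0.23 at 1.0659, KO library 1). The part of library quality and scaling in the RNA values was not tested. Without KO kidney libraries 2 and 3 the difference of the medians, large U5 minus Sm, was -0.40 in place of -0.66, and with Snrpd3 alone for the Sm genes it was 0.21.

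Brain RNA differed little between genotypes. The Sm genes were 0.23 (Snrpd1) to 0.31 (Snrpd3) higher on average in KO, each with an SE of 0.15 to 0.29, and the large U5 genes lay between -0.16 (Prpf8) and 0.13 (Prpf6). All 10 genes overlapped between genotypes, against 10.2% of 15731 coding genes with all KO libraries higher and 3.25% with all lower. Snrpg, for example, had 8.70, 8.97 and 5.71 CPM in WT and 5.87, 12.6 and 10.4 CPM in KO, where WT library 3 and KO library 1 were the low ones.

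TE followed from both. In kidney it was 1.09 (SE 0.16) for Prpf8, 0.46 (SE 0.17) for Snrnp200, 0.39 (SE 0.21) for Eftud2 and 0.15 (SE 0.22) for Prpf6, and -1.39 (SE 0.36) for Snrpf, -1.20 (SE 0.34) for Snrpe, -0.95 (SE 0.29) for Snrpg and -0.65 for both Snrpd1 (SE 0.30) and Snrpd2 (SE 0.28). Snrpd3 stood alone among the Sm genes at -0.01 (SE 0.27). Medians were 0.42 and -0.80, a difference of 1.22, which was 0.43 with Snrpd3 alone for the Sm genes. In brain TE was 0.60 (SE 0.22) for Prpf8, 0.48 (SE 0.23) for Snrnp200, 0.45 (SE 0.21) for Eftud2 and 0.28 (SE 0.22) for Prpf6. The Sm genes ran from -0.17 (Snrpd1, SE 0.27) to -0.55 (Snrpg, SE 0.37), and Snrpd3 here lay among them with -0.43 (SE 0.21). The medians of all genes tested were -0.13 in kidney and -0.09 in brain. These fold changes share libraries with those of RNA and footprints, so that they are not a further measurement.

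**Figure D4:**
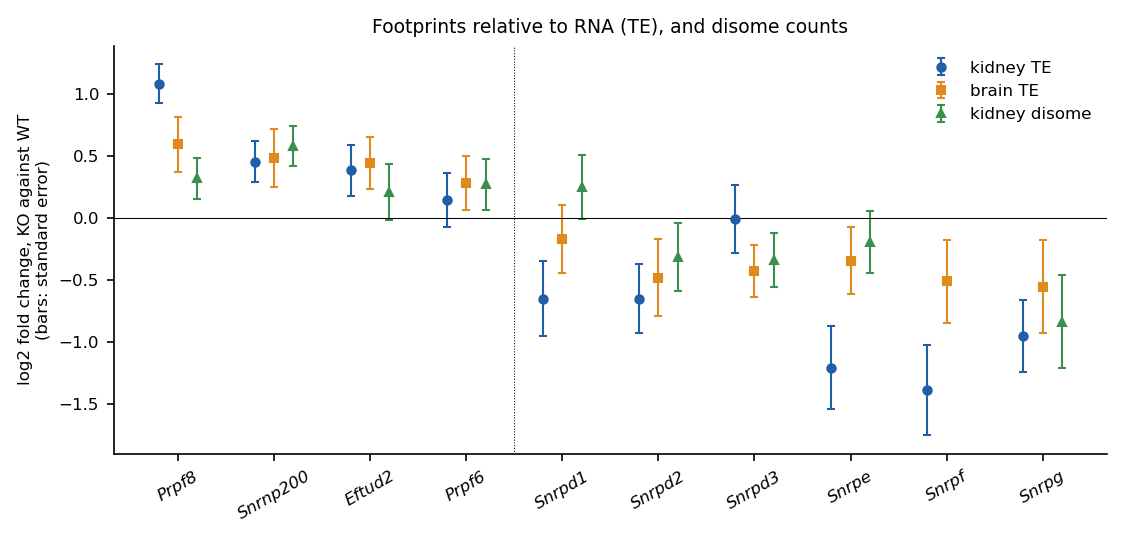
Log2 fold change of KO against WT in kidney TE, brain TE and kidney disome counts for each gene (bars: SE, 3 libraries per group and assay), with large U5 genes left of the dotted line. TE of the large U5 genes runs from 0.15 to 1.09 in kidney and that of the Sm genes from -1.39 to -0.01. Snrpf has no disome value because its counts were too low to be tested.

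Disome-seq in kidney was not used to choose the genes and asks whether disome counts on them differ. These counts were not taken relative to Ribo-seq counts, on which the genes were chosen, so a change per footprint was not tested. Kidney footprint changes of the large U5 genes were 0.61 for Prpf8, 0.61 for Snrnp200, 0.37 for Eftud2 and 0.48 for Prpf6. As the genes were chosen on these, the size of the disome changes below cannot be judged against them. In KO against WT, 0.0901% of 7773 coding genes were called higher and 0.0643% lower, and of the 9 members tested 0 were called by edgeR (adjusted p from 0.16 to 0.82). At an unadjusted p under 0.05, 1 large U5 gene and 1 Sm gene were found, beside 868 of the 7773 coding genes, and DESeq2 called 0 members as well. Snrnp200 had 55.3, 52.0 and 51.7 CPM in WT and 73.8, 85.7 and 79.9 CPM in KO, a log2 fold change of 0.58 (SE 0.16, unadjusted p = 0.0015, adjusted p = 0.16, edgeR), with adjusted p from 0.079 to 0.43 over 10 alternatives. Prpf8 had 71.6, 67.0 and 53.5 CPM in WT and 76.6, 83.4 and 84.8 CPM in KO (0.32, SE 0.17, adjusted p = 0.49). Both helicase and scaffold thus had all KO libraries above all WT libraries, a pattern found in 8.63% of coding genes, while Eftud2 (0.21, SE 0.23) and Prpf6 (0.27, SE 0.21) overlapped.

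Disome counts on the Sm genes were low. Snrpg had 40, 22 and 10 counts in WT and 17, 10 and 2 in KO, or 13.8, 7.48 and 9.06 CPM against 7.89, 5.64 and 1.95 CPM (-0.83, SE 0.37, unadjusted p = 0.035, adjusted p = 0.41, edgeR), with KO library 1 inside the WT range. Snrpd2 (-0.32, SE 0.27) held its lowest value in KO library 2 with 14 counts, and without that library its fold change was 0.04. Snrpd3 (-0.34, SE 0.22), Snrpe (-0.19, SE 0.25) and Snrpd1 (0.25, SE 0.26) had 13 to 87 counts per library. All KO libraries lay below the WT libraries for Snrpe and above them for Snrpd1, where 8.41% and 8.63% of coding genes did so. Snrpf had 1 to 13 counts and was not tested. The set medians were 0.30 and -0.32 against 0.00 for all genes tested, and at this depth a change in single Sm genes of the size of the SEs was not detectable.

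The 2 sets can also be set against each other within each library, as the median of the large U5 genes minus that of the Sm genes, each relative to its WT mean. In kidney Ribo-seq this was 0.09, 0.05 and -0.20 in the WT libraries and 0.60, 0.84 and 0.81 in KO. In brain Ribo-seq it was 0.28, -0.24 and -0.04 in WT and 0.12, 0.88 and 0.77 in KO, so that KO library 1 lay within the WT range. Disome-seq gave 0.12, -0.06 and 0.03 in WT and 0.27, 1.08 and 0.51 in KO, and kidney RNA-seq -0.07, -0.24 and 0.25 in WT and -0.43, -0.70 and -0.88 in KO. Brain RNA-seq overlapped, with -0.09, -0.42 and 0.48 in WT and 0.09, -0.46 and -0.27 in KO. The sign in KO was thus positive in every Ribo-seq and disome-seq library and negative in every kidney RNA-seq library. The genes were picked on this property except for disome-seq, whose counts were not taken relative to footprints.

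Other coding genes of like protein length had medians of the same signs in footprints. Genes with proteins of at least 941 residues, the length of PRPF6, had a median kidney footprint change of 0.22 (71.5% of 2162 positive), and those of at most 126 residues, the length of SmD3, one of -0.28 (11.7% of 609 positive). The large U5 genes (0.55, 4 of 4 positive) thus had a larger median than the long genes, whereas the Sm median (-0.20) was nearer to 0 than that of the short genes. Both sets were chosen on these changes and the classes were not, so that a difference from the classes was not tested. In brain Ribo-seq the classes had 0.09 and -0.23, against 0.40 and -0.19 for the 2 sets. In kidney RNA-seq the short class had 0.35 and the long class 0.03, against 0.72 for the Sm genes and 0.06 for the large U5 genes. Kidney TE was 0.17 and -0.63 in the classes and disome counts 0.14 and -0.30. Per library, the long class minus the short class ran from -0.21 to 0.11 in WT kidney Ribo-seq and from 0.35 to 0.53 in KO. In brain Ribo-seq it was 0.12 in KO library 1, beside 0.45 and 0.38 in KO libraries 2 and 3. In disome-seq it was 0.03, 0.27 and -0.31 in WT, where the order of the libraries was not that of the set difference, and 0.32, 0.68 and 0.52 in KO. How the length of these genes and their place in the spliceosome each bear on the values cannot be told apart, since the sets do not overlap in length.

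**Figure D5:**
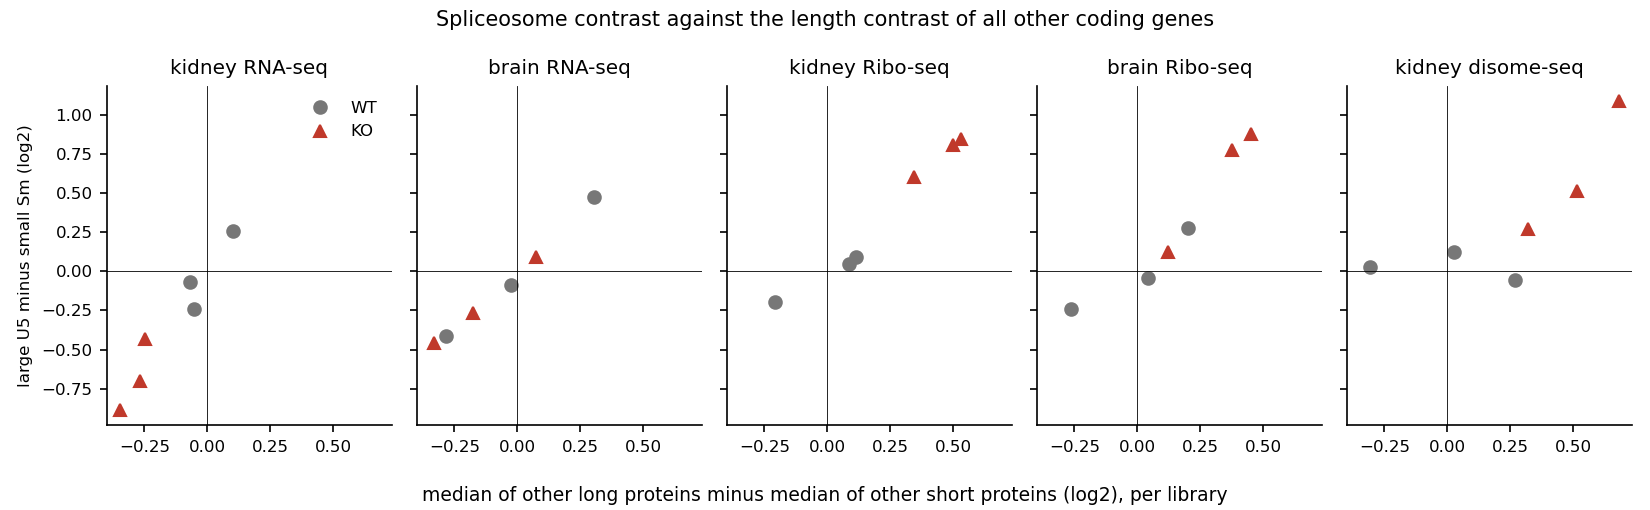
Large U5 median minus Sm median (vertical, log2) against the median of other proteins of at least 941 residues minus that of other proteins of at most 126 residues (horizontal, log2), per library and relative to the WT mean, in each tissue and assay. The kidney Ribo-seq KO libraries lie at 0.35 to 0.53 on the horizontal and 0.60 to 0.84 on the vertical axis, apart from WT, and in brain Ribo-seq KO library 1 lies among the WT libraries.

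The genes of a set also varied together over the 30 libraries. After centering within each tissue and assay, Pearson's r of log2 CPM between 2 genes had a median of 0.711 over the 6 pairs of large U5 genes (0.359 to 0.812), 0.460 over the 15 pairs of Sm genes (0.006 to 0.768) and -0.209 over the 24 mixed pairs (-0.701 to 0.257), of which 4 were positive. These values are a description, since the points share libraries, depth and the genotype contrast used for the choice. Among 7249 genes, the profiles most like the mean of the large U5 genes were those of Dync1h1 (r = 0.933, the dynein heavy chain, 4644 residues), Copa (0.921, a COPI coat subunit, 1233 residues), Tln1 (0.911, talin, 2541 residues) and Chd4 (0.904, a chromatin remodeler, 1922 residues). Those most like the Sm mean were Atp6v1f (0.951, a proton pump subunit, 119 residues), Ndufa11 (0.946, respiratory complex I, 143 residues), Cox17 (0.939, a copper chaperone, 63 residues), Nme1 (0.938, a nucleoside diphosphate kinase, 152 residues) and Atp5h (0.931, ATP synthase, 161 residues). The profiles named were thus those of long proteins for the first set and of short proteins for the second, with no other spliceosome gene among them.

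The other spliceosome genes comprised SmB and SmN, the LSm ring of U6, other proteins of U5 and the tri-snRNP, U1 and U2 proteins, SF3a and SF3b, the Prp19 complex and related proteins, helicases, and the factors that assemble the Sm ring, 69 genes in all. In kidney Ribo-seq, 11 of the 69 were called higher in KO and 2 lower, against 5.97% higher and 3.91% lower among all coding genes tested. Sf3b1 (1304 residues), which holds the branch site in the U2 particle, rose from 58.9 ± 3.72 to 91.0 ± 3.03 CPM (SD, n = 3), or by 0.63 (SE 0.11, adjusted p = 0.0086, edgeR). Crnkl1, a scaffold of the Prp19-related complex, rose from 8.92 ± 0.498 to 13.5 ± 0.412 CPM (0.59, SE 0.10, adjusted p = 0.0092), and Prpf3 of the U4/U6 particle from 4.38 ± 0.720 to 6.31 ± 0.593 CPM (0.52, SE 0.15, adjusted p = 0.047). Isy1 fell from 5.76 ± 0.293 to 4.10 ± 0.174 CPM (-0.48, SE 0.13, adjusted p = 0.042), and Txnl4a, the small U5 protein of 142 residues, from 11.6 ± 1.15 to 8.32 ± 0.541 CPM (-0.46, SE 0.11, adjusted p = 0.029). Txnl4a is thus a short U5 protein that was lower in KO, where the 4 large U5 genes lay above WT. Other U5 proteins were not called, namely Ddx23 (819 residues, 0.04, SE 0.10), Snrnp40 (358 residues, -0.16, SE 0.15) and Cd2bp2 (342 residues, -0.01, SE 0.12). The 12 listed genes of other U5 and tri-snRNP proteins had a median of -0.01, with 1 called higher and 1 lower.

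These calls were not firm. Over 11 alternatives, Sf3b1 and Crnkl1 were called in 9 (adjusted p from 5e-06 to 0.062 and from 0.0002 to 0.066), Txnl4a in 5 (0.03 to 0.12), Prpf3 in 2 (0.0088 to 0.18) and Isy1 in 1 (0.045 to 0.16), with the same sign throughout. Without KO kidney Ribo-seq library 2, or without library 3, 0 of the 69 were called, and 4 without KO library 1, 3 without WT library 1 or 2, and 7 without WT library 3. Calls over all transcripts moved as well. They were 288 higher and 229 lower of 72491 without KO library 2, and 142 and 143 of 72679 without KO library 3. Without KO library 1 they were 3262 and 1929 of 80505. Without WT library 1, 2 or 3 they were 1476 and 828 of 71890, 1752 and 973 of 79618, and 3443 and 2400 of 80068. By length, 8 of the 9 listed genes of at least 941 residues had positive changes in kidney Ribo-seq (median 0.42, 5 called higher), and 0 of the 8 of at most 126 residues (median -0.28, 0 called). Among all other coding genes of these lengths, 71.5% of 2162 and 11.7% of 609 were positive. The share called was counted only over all lengths together (5.97% higher and 3.91% lower), not for long or short genes alone. The LSm ring, whose 7 proteins of 80 to 138 residues are built like the Sm proteins, had no positive change (median -0.32, range -0.45 to -0.26, 0 called). Few short genes of any kind had one. SF3a and SF3b had 3 of 10 genes called higher, the Prp19 complex and related proteins 3 higher and 1 lower of 15, the helicases 2 of 6 higher, and the Sm assembly factors 2 of 12 higher.

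In the other assays edgeR called 0 of the 69 genes, and few or no coding genes at all. It called 0 of 15479 coding genes in kidney TE, 0 of 16721 in brain TE and 1 lower of 13906 in kidney RNA-seq. In brain it called 1 lower of 15731 in RNA-seq and 5 lower of 14465 in Ribo-seq. The absence of calls was thus not particular to the listed genes. At an unadjusted p under 0.05 there were 12 of the 69 in kidney RNA-seq (1967 of all 13906 coding genes), 3 in brain RNA-seq (786 of 15731), 16 in brain Ribo-seq (2096 of 14465), 14 in kidney TE (2727 of 15479) and 3 in brain TE (884 of 16721). In disome-seq there were 7 of the 52 tested, beside 868 of 7773. DESeq2 called 1 in brain Ribo-seq and 3 in kidney TE. Over all transcripts it called 307 higher and 81 lower of 81112 in brain Ribo-seq. In kidney TE it called 2258 higher and 1831 lower of 89685. Without KO kidney RNA-seq library 1, so that libraries 2 and 3 alone stood for the KO, 9 of the 69 were called in kidney RNA-seq and 8 in kidney TE. That setting also called 5344 transcripts higher and 7122 lower of 73294 in RNA, and 11608 higher and 4723 lower of 91865 in TE. Signs by length were alike in brain Ribo-seq (8 of 9 long genes and 0 of 8 short genes positive), kidney TE (8 of 9 and 0 of 8) and brain TE (9 of 9 and 1 of 8). Among all other long and short coding genes, 63.6% and 10.6%, 62.1% and 16.2%, and 68.8% and 16.1% were positive, in that order. The LSm ring had a kidney TE median of -0.81, beside -0.80 for the Sm genes and -0.63 for other short genes. Its kidney RNA median was 0.41, beside 0.72 and 0.35.

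Between WT tissues, 21 of the 69 listed genes were called higher and 9 lower in kidney RNA-seq, where 38.3% and 34.8% of all coding genes were. In kidney Ribo-seq 13 were called higher and 13 lower, where 37.6% and 38.0% of all coding genes were. The largest differences among genes with separate groups were Lsm4 (1.66), Dhx16 (1.41) and Gemin7 (1.33) higher in kidney RNA and, after Snrpn, Lsm7 (-4.94) and Ppih (-2.19) lower. In footprints they were Snrpb (1.02), Lsm4 (1.01) and Prpf4 (0.88) higher and, after Snrpn, Prpf19 (-0.83) and Lsm7 (-0.72) lower. Lsm7 had 0.268 CPM in WT kidney RNA-seq and 10.1 CPM in brain but 6.41 and 11.4 CPM in Ribo-seq, and its TE was higher in kidney by 4.38 (SE 0.29, adjusted p = 1.1e-08, edgeR), the same direction as for Snrpg. That value rests on a very low kidney RNA level of 1 of 2 listed coding transcripts. The windows of the LSm genes were not looked for elsewhere in the genome.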

How the data were processed

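For Ribo-seq and disome-seq the authors used RNase I footprinting, and for RNA-seq polyadenylated RNA. They trimmed adaptors, removed reads matching rRNA, aligned with STAR, allowing multimapping reads, and counted with featureCounts. They deposited raw read counts per mouse transcript, whole numbers without normalization. A human table, whose 28 value columns carry names of mouse samples, was not used. Transcripts were joined to GENCODE M21 (GRCm38) by identifier, and 141374 of 142604 matched. The 10 genes and all lists were chosen with earlier results of these data known.

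Counts were filtered with filterByExpr, scaled by TMM within each comparison and tested with edgeR's quasi-likelihood F-test, adjusted by Benjamini-Hochberg across the whole table of transcripts (threshold 0.05). TE was the interaction of assay with genotype or tissue. SE was obtained by dividing the absolute log2 fold change by the root of the F statistic. CPM are counts relative to the TMM-scaled library total, computed within each tissue and assay. Counts per kb used the coding length for Ribo-seq and the transcript length for RNA-seq. Other genes named were, per comparison, up to 3 called higher and 3 called lower with the largest change and separate groups, and the 5 genes most like each set, of which 1 is not reported here. Profiles used log2(CPM + 0.5). Alternatives were DESeq2, library totals, no filter beyond 1 count, counts summed per gene, a replicate block, other summaries and transcripts, and each library left out. Those without KO kidney RNA-seq libraries 2 and 3, and with Snrpd3 alone, were chosen after seeing the data. Scripts were tested on simulated counts. R 4.3.3, edgeR 4.0.16, limma 3.58.1, DESeq2 1.42.0, data.table (version 1.17.8), Python 3.11.15, numpy 2.4.6, pandas 2.3.3 and matplotlib 3.10.9 were used.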

Additional observations from a re-analysis of the deposited data

How the results depend on the processing

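Limits are the multimapping reads of 5 Sm genes and in part of Snrpn and Snrpb, 3 libraries per group, the low counts in disome-seq and the KO kidney RNA-seq libraries 2 and 3 that stand apart. The following values are log2 fold changes or counts of called genes, and the cause of a change was not tested. With Snrpd3 alone for the Sm genes, the difference of medians (large U5 minus Sm) turned in kidney RNA-seq to 0.21 and was 0.43 in kidney TE. Without KO kidney RNA-seq libraries 2 and 3 it was -0.40 in kidney RNA-seq. Each library left out gave -0.82 to -0.53 there, 0.67 to 0.85 in kidney footprints, 1.13 to 1.36 in kidney TE, -0.46 to -0.06 in brain RNA, 0.42 to 0.80 in brain footprints, 0.73 to 1.12 in brain TE and 0.37 to 0.85 in disomes. The 1 member called in TE between WT tissues became 2 under DESeq2, counts per gene, library totals, no filter and the replicate block, and 1 to 2 with a library left out. Members called between WT tissues with a library left out were 5 to 6 in RNA and 3 to 6 in footprints. The 13 other spliceosome genes called in kidney footprints became 5 under DESeq2, 3 with counts per gene, 4 with library totals, 6 under the replicate block and 0 to 7 with a library left out. Over all 75266 transcripts, the calls in kidney footprints were 3573 higher and 2265 lower. They became 2540 and 957 under DESeq2, 1531 and 2543 with library totals, and 2477 and 1533 under the replicate block. Left-out libraries gave 0 to 9 other spliceosome genes in kidney RNA and 0 to 8 in kidney TE. DESeq2 called 3 in kidney TE and 1 in brain footprints, and no filter called 2 in brain footprints. With no filter, 782 transcripts were called higher and 791 lower of 127174 in brain footprints. The replicate block changed no other count of members or other spliceosome genes called by over 1.5 times. Over all transcripts it moved the disome calls from 24 higher and 46 lower of 34754 to 141 and 111. In brain footprints it moved them from 1 higher and 27 lower of 81112 to 4 and 76. Replicate numbers were shared by the groups. Samples of the same number deviated together in some comparisons and not in others (correlations from -0.476 to 0.529). The highest were those of WT and KO library 2 in brain RNA-seq (0.529) and kidney RNA-seq (0.489). As the labels do not name the animals, samples of the same number were not treated as paired in the main fits.

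Signs reversed only for values without a call. With each library left out, the disome change ran from -0.734 to 0.0440 for Snrpd2 and from -0.172 to 0.0855 for Snrpb. Between WT tissues, RNA ran from -0.425 to 0.0451 for Snrpd1, from -0.0526 to 0.327 for Snrpd2 and from -0.0418 to 0.178 for Snrpd3, footprints from -0.0414 to 0.154 for Prpf8 and from -0.0254 to 0.133 for Snrpg, and TE from -0.473 to 0.0643 for Snrpd2 and from -0.255 to 0.132 for Snrpb. Library totals gave -0.0893 for Snrpd2 RNA, -0.125 for Snrpd3 RNA, -0.0422 for Prpf8 footprints and -0.0499 for Snrpg footprints. DESeq2 gave -0.0008 for Prpf8 footprints, -0.0155 for Snrpg footprints and -0.192 for Snrpb TE. Counts per gene gave -0.0255 for Snrpg footprints and, in TE, 0.0820 for Eftud2 and 0.0530 for Snrpd2.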
